A study of Mus musculus with 9 samples.

Results

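The synaptic vesicle and release machinery was followed here as 44 genes: synapsins, vesicle membrane proteins, vesicular glutamate transporters, synaptotagmins and Doc2 proteins, SNAREs with complexins and SNARE recycling factors, and the proteins of the active zone. Members were the rows of the authors' deposited tables whose symbol is on a list of 44 names, and all 44 were present among the 24015 rows of each table. RNA came from the microdissected dentate gyrus, the hippocampal region whose principal cells are granule neurons, of individual C57BL/6 mice aged 8 weeks. The groups were E0, E1 and E4 with 3 mice each, and the labels name no transgene, Cre line or other agent for any of them. The study's question was what firing does to the transcripts, and to open chromatin, of this region. As background to the study, E0 mice were not stimulated and E1 and E4 mice were taken 1 h and 4 h after electroconvulsive stimulation, which makes granule neurons fire together.

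At a nerve terminal, vesicles are filled with transmitter, docked at the active zone, primed, and fused with the plasma membrane when calcium enters. Fusion is driven by the SNARE proteins on vesicle and plasma membrane, triggered by synaptotagmins, and followed by SNARE disassembly and vesicle retrieval. The axons of granule neurons, the mossy fibres, end in large terminals in the hilus and in CA3, the latter outside the dentate gyrus.

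The changes were read from the authors' deposited tables, that of E1 and that of E4 over E0. For every gene a table gives the log2 fold change with a standard error (SE), the adjusted p, and the normalised count averaged over the libraries compared (mean count). Neither holds values of single mice, so each change below carries the authors' SE from 3 mice against 3, and overlap between single mice could not be seen. A gene was called raised or lowered where the authors' adjusted p was below 0.05. Neither names its reference group, which was taken as E0, so both comparisons share those mice. In bulk tissue, fewer cells of a type and less RNA per cell cannot be told apart. As a check of the labels, Arc stood at a log2 fold change of 6.65 ± 0.14 (SE) in E1 and 3.41 ± 0.33 in E4 in the authors' deposited tables, Egr1 at 3.72 ± 0.16 and 0.71 ± 0.12, and Fos at 4.64 ± 0.21 and 0.51 ± 0.30, the last not called. Prox1, the defining transcription factor of granule neurons, was well read, with a mean count over all libraries compared of 991 where E1 was compared and 2680 where E4 was, on separate scales. It was lowered in E1 (-0.66 ± 0.11, adjusted p = 5.6e-08) and raised in E4 (0.41 ± 0.10, adjusted p = 0.000278) in the authors' deposited tables.

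In E1 the machinery moved mostly upward. Of 44 members 22 were raised, 7 lowered and 15 not called in the authors' deposited table, against 20.6% raised and 15.0% lowered (35.5% in either direction) among all 15660 genes tested there. The median log2 fold change of the members was 0.35, beside 0.02 for all genes tested. In E4 the direction had turned, with 5 raised, 15 lowered and 24 not called in the authors' deposited table. The background there was 20.7% raised and 18.3% lowered (39.0% in either direction) of 14455 genes tested. The members' median was -0.12, beside -0.01 for all genes tested. All 44 members had an adjusted p in both tables, so none was lost to the authors' filter on low counts. Well-read genes are called more often. Above a mean count of 50, 24.5% of all genes were raised and 20.7% lowered in E1 (45.1% in either direction), and 25.5% and 21.9% in E4 (47.4% in either direction). This count was reached in both tables by 39 members, and for these E1 had 21 raised and 7 lowered, E4 5 raised and 15 lowered.

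The count of 5 raised members in E4 depended on the settings. The calls of Syt12 and Rims1 were lost when no filter on low counts was used or when the fold changes were centred on the median, and those of Rims1 and Bsn when fold changes were corrected for transcript length and GC content, which left 3 raised each time. With that correction Rims1 stood at 0.22 (adjusted p = 0.0821) and Bsn at 0.50 (adjusted p = 0.0936), beside 0.24 and 0.64 without it. At an adjusted p below 0.01, 2 of the 5 remained called, Sv2c and Rims2.

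**Figure D1:**
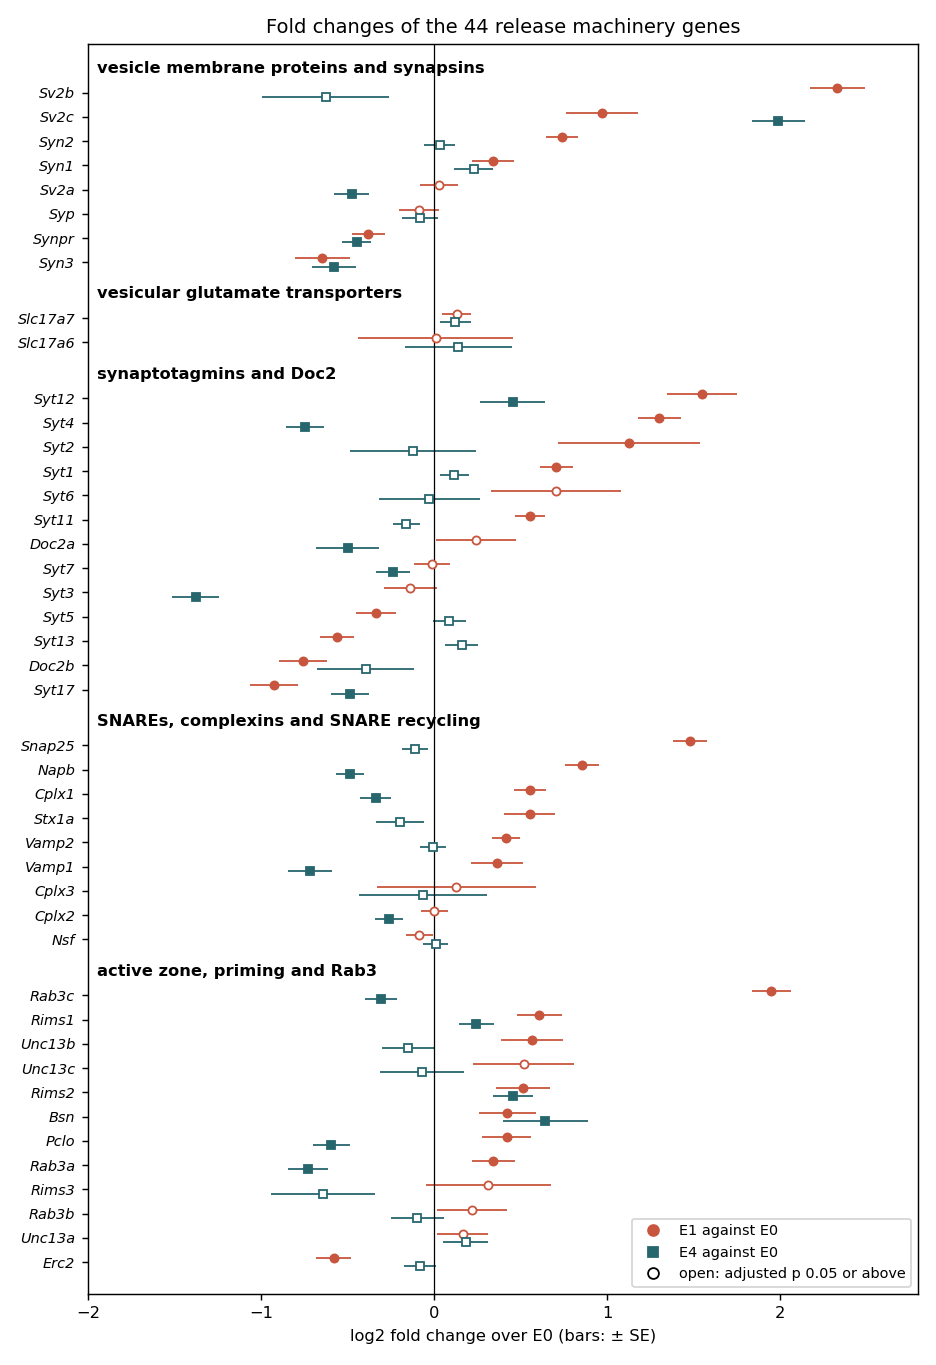
Log2 fold change over E0 (horizontal axis) of each of the 44 genes, grouped by role and sorted by the value in E1. Circles are E1 and squares E4, bars are ± SE from 3 mice against 3, and filled symbols have an adjusted p below 0.05. Most filled circles lie to the right of 0, 22 of 29, and most filled squares to the left, 15 of 20.

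Per length of the longest annotated transcript, levels of the members spanned more than 3 orders of magnitude. In the table for E4 the 6 most abundant were Cplx2 at 5524 mean normalised counts per kb, Snap25 at 4795, Slc17a7 at 4731, Syp at 4630, Nsf at 4524 and Vamp2 at 4021. Vamp2, the last of these, lay at percentile 99.5 of the genes with a length in that table, and Cplx2 at 99.7. Next came Rab3a at 1837 and Syt1 at 1695 counts per kb, at percentiles 98.1 and 97.9. At the other end were Slc17a6 at 7.66, Cplx3 at 7.65, Rims3 at 5.20 and Syt2 at 2.92 counts per kb. The isoforms in use are not known, so the order of near neighbours such as Slc17a7 and Syp cannot be read from these values.

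**Figure D2:**
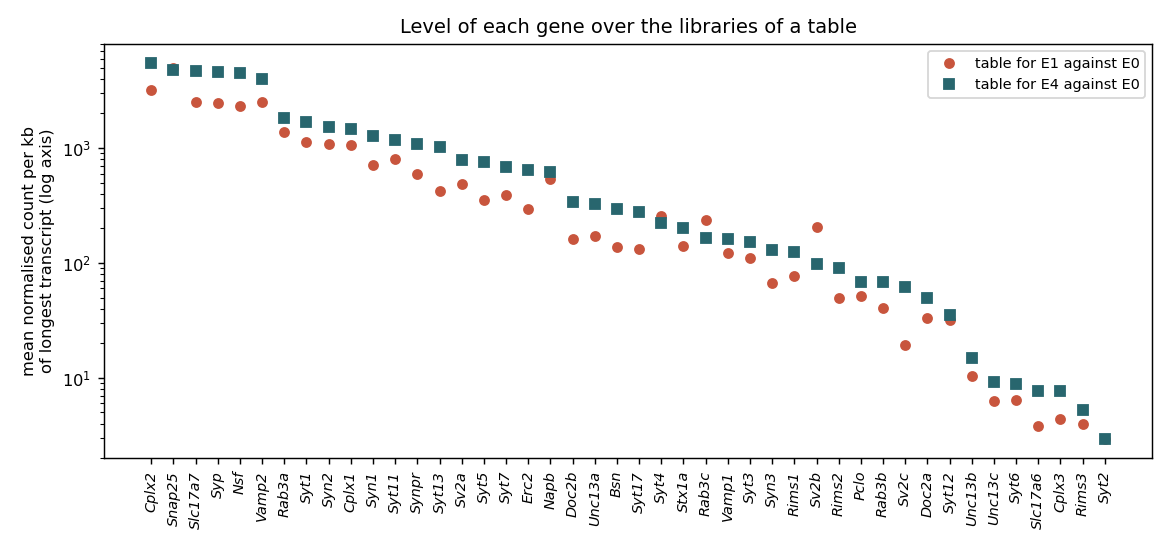
Mean normalised count per kb of the longest transcript (log axis) of each gene in the table for E1 against E0 (circles) and in that for E4 against E0 (squares), ordered by the latter. The tables have separate scales: the median ratio of the squares to the circles is 1.61. The circles of Sv2b, Rab3c, Syt4 and Snap25 lie above their squares.

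The 3 members with the largest absolute log2 fold change in either comparison were Sv2b, Sv2c and Rab3c, and the promoter of each is shown with that of Syn1. The latter is the only member window that holds a full cAMP response element, the CREB site TGACGTCA. Each line gives the 250 bases before the annotated start, 5′ to 3′ on the gene's strand (here the minus strand for all 4), from RefSeq on build GRCm38.p6. Capitals mark a motif match. The windows are chr7:75309263-75309512 for the most upstream of 4 annotated starts of Sv2b, chr13:110280207-110280456 for Rab3c, chr13:96132578-96132827 for Sv2c and chrX:20920919-20921168 for Syn1.
Sv2b: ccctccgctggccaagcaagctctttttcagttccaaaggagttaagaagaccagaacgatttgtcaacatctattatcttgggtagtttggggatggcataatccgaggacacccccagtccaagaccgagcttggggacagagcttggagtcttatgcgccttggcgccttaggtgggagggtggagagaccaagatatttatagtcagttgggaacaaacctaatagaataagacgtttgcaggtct
Rab3c: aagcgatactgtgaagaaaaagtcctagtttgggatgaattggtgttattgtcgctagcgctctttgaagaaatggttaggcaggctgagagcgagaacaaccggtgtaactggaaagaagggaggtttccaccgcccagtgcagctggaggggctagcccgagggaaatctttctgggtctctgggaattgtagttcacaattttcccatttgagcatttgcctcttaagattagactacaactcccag
Sv2c: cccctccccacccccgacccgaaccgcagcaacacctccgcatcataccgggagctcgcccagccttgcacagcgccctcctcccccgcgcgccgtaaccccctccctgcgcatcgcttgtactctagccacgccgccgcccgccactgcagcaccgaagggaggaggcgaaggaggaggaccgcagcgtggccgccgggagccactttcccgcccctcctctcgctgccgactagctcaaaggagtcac
Syn1: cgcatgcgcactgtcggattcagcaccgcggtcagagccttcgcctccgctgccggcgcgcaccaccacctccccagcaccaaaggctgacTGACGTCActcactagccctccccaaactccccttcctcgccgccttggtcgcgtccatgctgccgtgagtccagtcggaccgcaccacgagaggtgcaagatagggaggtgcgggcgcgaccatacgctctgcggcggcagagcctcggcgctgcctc
The match in Syn1 begins 159 bases before the start. On either strand TGACGTCA was found in 1 of 43 windows of the 32 members that matched the promoter table, beside 1.55% of all 32851 windows. The AP-1 motif TGANTCA was found in 2 member windows, those of Erc2 and Syt2, beside 6.75% of all windows, and the EGR motif GCGTGGGCG in 1, that of Unc13a, beside 0.536%. The windows of Sv2b and Rab3c are 48.8% and 47.6% GC and those of Sv2c and Syn1 70.8% and 68.0%. A match describes these letters only, and no binding was measured here.

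Among vesicle membrane proteins and synapsins, the SV2 family of vesicle glycoproteins showed the widest changes, and its 3 members followed different courses. Sv2b was the most raised member in E1, 5.03-fold (2.33 ± 0.16, adjusted p = 1.63e-46, mean count 1125) in the authors' deposited table. In E4 it stood at -0.63 ± 0.37 (adjusted p = 0.175, mean count 540) in the authors' deposited table and was not called. Sv2c was raised at both times in the authors' deposited tables, 1.96-fold in E1 (0.97 ± 0.21, adjusted p = 1.89e-05, mean count 175) and 3.97-fold in E4 (1.99 ± 0.15, adjusted p = 9.15e-37, mean count 564). Sv2a, whose product binds the antiepileptic drug levetiracetam, was not called in E1 at 0.03 ± 0.11 (adjusted p = 0.857, mean count 2107) in the authors' deposited table. In E4 it was lowered 1.39-fold (-0.48 ± 0.10, adjusted p = 1.99e-05, mean count 3381) in the authors' deposited table. So the least abundant paralog per kb in these tables, Sv2c, was the raised member of the family at E4, while the most abundant, Sv2a, was lowered.

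The synapsins, which hold vesicles in the reserve pool, also diverged. Syn2 was raised in E1 at 0.74 ± 0.09 (adjusted p = 2.97e-14) in the authors' deposited table and stood at 0.03 ± 0.09 in E4 (adjusted p = 0.818). Syn1 was raised in E1 at 0.34 ± 0.12 (adjusted p = 0.0155, mean count 2304) and not called in E4 at 0.23 ± 0.11 (adjusted p = 0.0938, mean count 4170) in the authors' deposited tables. Syn3 was lowered at both times in the authors' deposited tables, at -0.65 ± 0.16 in E1 (adjusted p = 0.000255, mean count 267) and -0.58 ± 0.13 in E4 (adjusted p = 3.89e-05, mean count 517). Of the exon bases of Syn3, 1733 overlap Timp3 on the opposite strand, and of those of Syp 875 overlap Gm14703. Synaptophysin is an abundant vesicle protein that binds Vamp2, and synaptoporin is its relative found in mossy fibre terminals. Syp was called at neither time in the authors' deposited tables, at -0.08 ± 0.12 and -0.08 ± 0.11 (adjusted p = 0.622 and 0.596, mean counts 6340 and 11997), and the 95% intervals of its fold were 0.806 to 1.10 and 0.819 to 1.09. Synpr was lowered at both times in the authors' deposited tables, at -0.38 ± 0.09 (adjusted p = 0.000351, mean count 1981) and -0.45 ± 0.08 (adjusted p = 7.01e-07, mean count 3664).

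Vesicular glutamate transporters load vesicles with transmitter, and neither of the 2 among the members was called. Slc17a7, the VGLUT1 gene of granule neurons, stood at 0.13 ± 0.08 in E1 and 0.12 ± 0.09 in E4 (adjusted p = 0.233 and 0.284, mean counts 7312 and 13790) in the authors' deposited tables. The 95% interval of its fold was 0.976 to 1.23 in E1 and 0.966 to 1.23 in E4. After correction for transcript length and GC content Slc17a7 was called raised in E1, at 0.26 (adjusted p = 0.00921). Slc17a6, the VGLUT2 gene, was rarely read, with mean counts of 15.6 and 31.7 and SEs of 0.45 and 0.31 in the authors' deposited tables. The VGLUT3 gene Slc17a8 is not a member and is counted below under vesicle acidification and transmitter loading. It was raised in E1 at 3.15 ± 0.42 (adjusted p = 1.05e-12) in the authors' deposited table, at a mean count of only 26.3. In E4 Slc17a8 stood at -0.34 ± 0.44 (adjusted p = 0.594, mean count 5.14) in the authors' deposited table.

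Synaptotagmins are proteins with a pair of C2 domains, and not all of them sit on synaptic vesicles. Syt1 and Syt2 are the fast calcium sensors of synchronous release, Syt7 is a slower sensor, Syt3 also acts in AMPA receptor retrieval, and Syt4, Syt11, Syt12 and Syt13 bind calcium weakly or not at all. Of the 13 synaptotagmin and Doc2 genes, 5 were raised and 4 lowered in E1, and 1 was raised and 5 lowered in E4, in the authors' deposited tables. Of all genes tested, 20.6% were raised and 15.0% lowered in E1, and 20.7% and 18.3% in E4. Syt4, long known as a gene induced by depolarisation, was raised 2.47-fold in E1 (1.30 ± 0.13, adjusted p = 1.46e-23, mean count 1001) in the authors' deposited table. In E4 it was lowered 1.68-fold (-0.75 ± 0.11, adjusted p = 1.49e-10, mean count 859) in the authors' deposited table. Syt12 was raised 2.93-fold in E1 (1.55 ± 0.20, adjusted p = 5.3e-13, mean count 114) and 1.37-fold in E4 (0.46 ± 0.19, adjusted p = 0.0402, mean count 127) in the authors' deposited tables. Exons of Syt4 and Syt12 overlap 566 and 950 bases of genes on the opposite strand (Gm26658 and A930001C03Rik), and strand use in counting is not stated.

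Syt3 had the largest fall of any member, 2.60-fold in E4 (-1.38 ± 0.13, adjusted p = 5.39e-23, mean count 397) in the authors' deposited table, after -0.14 ± 0.15 in E1 (adjusted p = 0.534). Syt1 was raised in E1 at 0.71 ± 0.10 (adjusted p = 3.31e-12, mean count 5472) and not called in E4 at 0.12 ± 0.08 (adjusted p = 0.285, mean count 8168) in the authors' deposited tables. Syt11 did likewise, at 0.56 ± 0.08 (adjusted p = 7.9e-10) and -0.16 ± 0.08 (adjusted p = 0.0964) in the authors' deposited tables. Syt1 and Syt11 were thus abundant genes raised in E1 alone by call, while Syt2, raised at 1.13 ± 0.41 (adjusted p = 0.0203), had a mean count of only 20.1 in the authors' deposited table. Syt2 stood at -0.12 ± 0.36 in E4 (adjusted p = 0.831, mean count 20.1) in the authors' deposited table.

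A second set of synaptotagmins and Doc2b went down in E1. Syt17 was lowered 1.90-fold in E1 (-0.92 ± 0.14, adjusted p = 3.61e-10, mean count 389) and 1.40-fold in E4 (-0.49 ± 0.11, adjusted p = 5.83e-05, mean count 824) in the authors' deposited tables. Syt13 was lowered in E1 at -0.56 ± 0.10 (adjusted p = 9.03e-08, mean count 1605), and Syt5 at -0.33 ± 0.11 (adjusted p = 0.0125, mean count 613), in the authors' deposited table. In E4 both were not called, at 0.16 ± 0.10 (adjusted p = 0.182) and 0.09 ± 0.09 (adjusted p = 0.499) in the authors' deposited table. After correction for transcript length and GC content Syt5 stood at -0.13 in E1 (adjusted p = 0.414) and was not called. Doc2b, a high-affinity calcium sensor of spontaneous and asynchronous release, was lowered 1.69-fold in E1 (-0.76 ± 0.14, adjusted p = 6.0e-07, mean count 709) in the authors' deposited table. In E4 it stood at -0.39 ± 0.28 (adjusted p = 0.281, mean count 1469) in the authors' deposited table. Its relative Doc2a was not called in E1 at 0.24 ± 0.23 and was lowered in E4 at -0.50 ± 0.18 (adjusted p = 0.0174, mean count 125) in the authors' deposited tables. Of the exon bases of Doc2a, 1103 of 2803 overlap Ino80e on the opposite strand. Syt7 was not called in E1 at -0.01 ± 0.10 and was lowered in E4 at -0.24 ± 0.10 (adjusted p = 0.0360) in the authors' deposited tables, and Syt6, with mean counts of 28.1 and 39.0, was called at neither time.

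Among SNAREs, complexins and SNARE recycling factors, 6 of 9 were raised and none lowered in E1, and 4 were lowered and none raised in E4, in the authors' deposited tables. The shares over all genes tested were 20.6% raised and 15.0% lowered in E1, and 20.7% and 18.3% in E4. The plasma membrane SNARE Snap25 was raised 2.79-fold in E1 (1.48 ± 0.10, adjusted p = 1.44e-49) in the authors' deposited table, where its mean count was 10631.5. In E4 it stood at -0.11 ± 0.08 (adjusted p = 0.273, mean count 10147) in the authors' deposited table. Napb, the beta-SNAP that recruits NSF to used SNARE complexes, was raised 1.81-fold in E1 (0.86 ± 0.10, adjusted p = 5.09e-16, mean count 2368) and lowered 1.40-fold in E4 (-0.49 ± 0.08, adjusted p = 4.40e-08, mean count 2716) in the authors' deposited tables. Nsf itself, the ATPase of that step, was called at neither time, at -0.08 ± 0.08 and 0.01 ± 0.07 (adjusted p = 0.425 and 0.937, mean counts 8727 and 17038) in the authors' deposited tables. The 95% intervals of its fold were 0.850 to 1.05 in E1 and 0.910 to 1.11 in E4.

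The partners of Snap25 moved less. Stx1a, the other plasma membrane SNARE, was raised in E1 at 0.55 ± 0.15 (adjusted p = 0.000863, mean count 305) and not called in E4 at -0.19 ± 0.14 (adjusted p = 0.286, mean count 436) in the authors' deposited tables. Vamp2, the main vesicle SNARE of the forebrain, was raised in E1 at 0.42 ± 0.08 (adjusted p = 2.21e-06, mean count 5498) and stood at -0.01 ± 0.08 in E4 (adjusted p = 0.961, mean count 8867) in the authors' deposited tables. Vamp1 was raised in E1 at 0.36 ± 0.15 (adjusted p = 0.0449, mean count 369) and lowered 1.64-fold in E4 (-0.71 ± 0.13, adjusted p = 2.33e-07, mean count 488) in the authors' deposited tables. Its call in E1 was lost without a filter on low counts. Complexins bind assembled SNAREs and both clamp and promote fusion. Cplx1 was raised in E1 at 0.56 ± 0.09 (adjusted p = 1.67e-08) and lowered in E4 at -0.34 ± 0.09 (adjusted p = 0.000625) in the authors' deposited tables. The more abundant Cplx2 stood at 0.00 ± 0.08 in E1 (adjusted p = 0.992, mean count 15717) and was lowered 1.20-fold in E4 (-0.26 ± 0.08, adjusted p = 0.00416, mean count 27223) in the authors' deposited tables. Cplx3 was rarely read, with mean counts of 12.4 and 21.9, and called at neither time in the authors' deposited tables.

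At the active zone, 7 of 12 genes were raised and 1 lowered in E1, and 3 were raised and 3 lowered in E4, in the authors' deposited tables. Of all genes tested, 20.6% were raised and 15.0% lowered in E1, and 20.7% and 18.3% in E4. The E4 counts, 25% each way, were thus near the background, which was 25.5% and 21.9% above a mean count of 50. Rab3 proteins are small GTPases on the vesicle that bind RIM. Rab3c was the second most raised member in E1, 3.87-fold (1.95 ± 0.11, adjusted p = 4.96e-67, mean count 1990), and was lowered 1.24-fold in E4 (-0.31 ± 0.09, adjusted p = 0.00302, mean count 1380), in the authors' deposited tables. Rab3a, the most abundant of the family per kb, was raised in E1 at 0.34 ± 0.12 (adjusted p = 0.0176, mean count 2148) and lowered 1.66-fold in E4 (-0.73 ± 0.11, adjusted p = 2.28e-09, mean count 2858) in the authors' deposited tables. Rab3b was called at neither time, at 0.22 ± 0.20 and -0.10 ± 0.15 in the authors' deposited tables.

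RIM proteins tether calcium channels at release sites and activate Munc13, the priming factor encoded by the Unc13 genes. Rims1 was raised at 0.61 ± 0.13 in E1 (adjusted p = 2.14e-05, mean count 494) and 0.24 ± 0.10 in E4 (adjusted p = 0.0439, mean count 805) in the authors' deposited tables. Rims2 was raised at 0.51 ± 0.16 in E1 (adjusted p = 0.00407, mean count 236) and 0.46 ± 0.12 in E4 (adjusted p = 0.000501, mean count 438) in the authors' deposited tables. The short form Rims3, at mean counts of 25.6 and 33.8, was called at neither time in the authors' deposited tables. Unc13a was called at neither time, at 0.17 ± 0.15 and 0.18 ± 0.13 (adjusted p = 0.414 and 0.272, mean counts 1755 and 3342) in the authors' deposited tables. Unc13b was raised in E1 at 0.57 ± 0.18 (adjusted p = 0.00618) and stood at -0.15 ± 0.15 in E4 in the authors' deposited tables, and Unc13c, at a mean count of 55.4 in the first, was called at neither time. After correction for length and GC content Unc13b stood at 0.25 in E1 (adjusted p = 0.303) and was not called.

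The giant scaffolds Bassoon and Piccolo, which share much of their structure, were both raised in E1 and were called in opposite directions in E4. Bsn was raised at 0.42 ± 0.16 in E1 (adjusted p = 0.0278, mean count 2201) and 0.64 ± 0.24 in E4 (adjusted p = 0.0245, mean count 4654) in the authors' deposited tables. Pclo was raised at 0.42 ± 0.14 in E1 (adjusted p = 0.0106, mean count 1028) and lowered 1.51-fold in E4 (-0.59 ± 0.11, adjusted p = 4.00e-07, mean count 1373) in the authors' deposited tables. After the same correction neither was called in E1, with Bsn about as large at 0.38 (adjusted p = 0.0579) and Pclo smaller at 0.09 (adjusted p = 0.689). In E4 the correction also removed the call of Bsn, at 0.50 (adjusted p = 0.0936), so the opposite calls in E4 depended on the settings. Erc2, an ELKS scaffold that binds RIM, was the lowered gene of this group in E1 at -0.58 ± 0.10 (adjusted p = 9.69e-08, mean count 1834) and stood at -0.08 ± 0.09 in E4 (adjusted p = 0.553, mean count 4047) in the authors' deposited tables.

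E4 was set against E1 by subtracting the fold changes (log2) of E1 from those of E4 and dividing by the SE of that difference. Of 44 members, 19 were lower and 5 higher in E4 than in E1, against 19.0% lower and 17.7% higher (36.7% in either direction) of all 12769 genes tested. The members' median difference was -0.47, beside 0.01 over all genes tested. The 5 largest drops, each with its SE, were those of Sv2b at -2.96 ± 0.40 (adjusted p = 3.68e-12), Rab3c at -2.26 ± 0.14 (adjusted p = 7.14e-53), Syt4 at -2.05 ± 0.17 (adjusted p = 2.57e-32), Snap25 at -1.59 ± 0.12 (adjusted p = 5.48e-35) and Napb at -1.34 ± 0.13 (adjusted p = 8.13e-23). The 5 gains were those of Sv2c at 1.02 ± 0.26 (adjusted p = 0.00043), Syt13 at 0.72 ± 0.14 (adjusted p = 1.30e-06), Erc2 at 0.50 ± 0.14 (adjusted p = 0.00121), Syt17 at 0.44 ± 0.18 (adjusted p = 0.0383) and Syt5 at 0.42 ± 0.15 (adjusted p = 0.0149). The gain of Syt17 was not called once each table was centred on its median (0.40, adjusted p = 0.0621), which left 4. The gains of Syt13, Erc2, Syt17 and Syt5 were thus from a value below E0 in E1, and that of Sv2c from a value already above it.

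**Figure D3:**
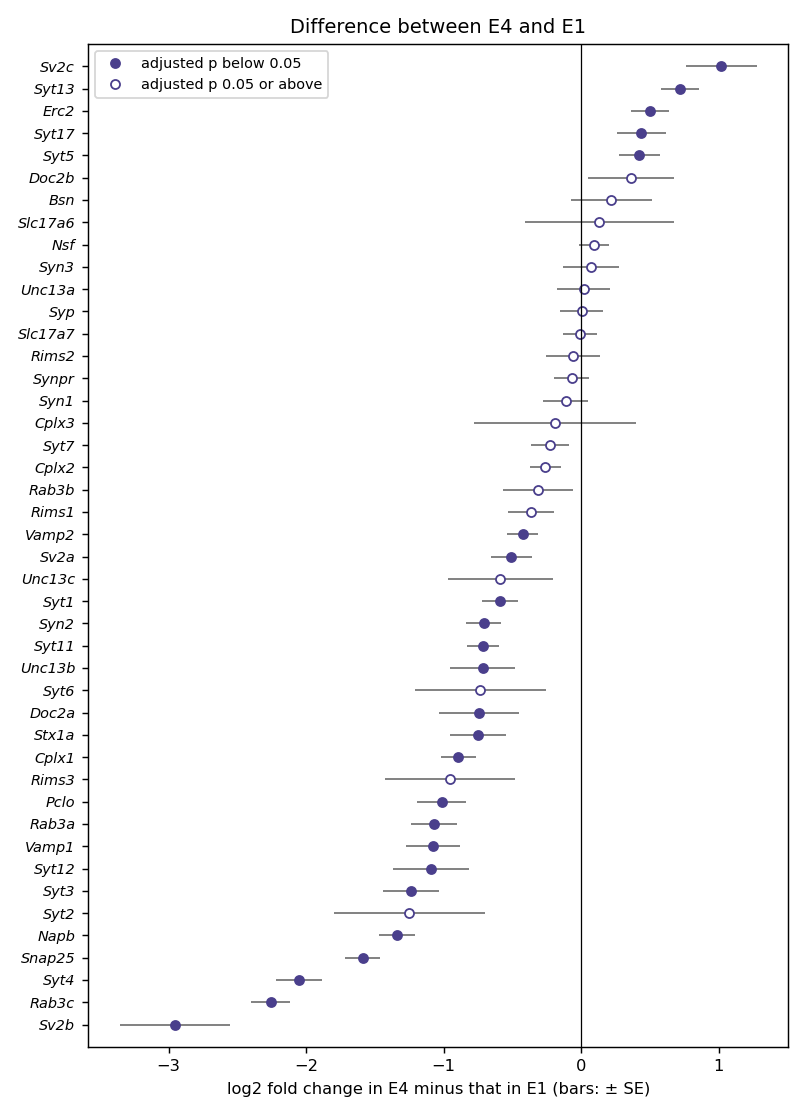
Log2 fold change in E4 minus that in E1 (horizontal axis) for each of the 44 genes, sorted. Bars are ± SE, the root of the sum of both squared SEs, and filled symbols have an adjusted p below 0.05. There are 19 filled points on the negative side and 5 on the positive side.

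Each gene's own calls are set side by side here as a description only, since both comparisons share the E0 mice. Raised in E1 and lowered in E4 in the authors' deposited tables were Cplx1, Napb, Pclo, Rab3a, Rab3c, Syt4 and Vamp1, and each of these was also lower in E4 than in E1 by the test of the difference. Raised in E1 and not called in E4 in the authors' deposited tables were Snap25, Stx1a, Sv2b, Syn1, Syn2, Syt1, Syt11, Syt2, Unc13b and Vamp2. Among these the difference itself was not called for Syn1 (-0.11 ± 0.16, adjusted p = 0.632) and Syt2 (-1.25 ± 0.55, adjusted p = 0.0596), and that of Syt2 was called with a correlation of 0.5 between the fold changes (adjusted p = 0.00356). Raised at both times in the authors' deposited tables were Bsn, Rims1, Rims2, Sv2c and Syt12, and lowered at both Syn3, Synpr and Syt17. Lowered in E4 after no call in E1 in the authors' deposited tables were Cplx2, Doc2a, Sv2a, Syt3 and Syt7. Among these the difference was not called for Cplx2 (-0.26 ± 0.11, adjusted p = 0.0525) and Syt7 (-0.23 ± 0.14, adjusted p = 0.203), and a correlation of 0.5 brought a call for both.

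A few members had a large SE for how often they were read. Each was set beside the 500 tested genes nearest to it in mean count. In E4 the SE of Sv2b, 0.37, lay above 99.8% of its 500 neighbours, whose median was 0.12, and that of Doc2b, 0.28, above 99.8% of its own (median 0.10), from the authors' deposited table. Bsn followed with 0.24 in E4, above 98.6% of its neighbours (median 0.09), and 0.16 in E1, above 99.0% (median 0.10), from the authors' deposited tables. Sv2b in E1 had an SE of 0.16, above 97.2% of its neighbours, and Sv2c in E4 one of 0.15, above 97.6%. Unc13a had 0.15 in E1, above 97.0%, and 0.13 in E4, above 97.6%. The fold change of these genes was thus less precise than that of genes read as often. For Sv2b and Doc2b in E4, which were not called, changes of -0.63 and -0.39 had SEs of 0.37 and 0.28.

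**Figure D4:**
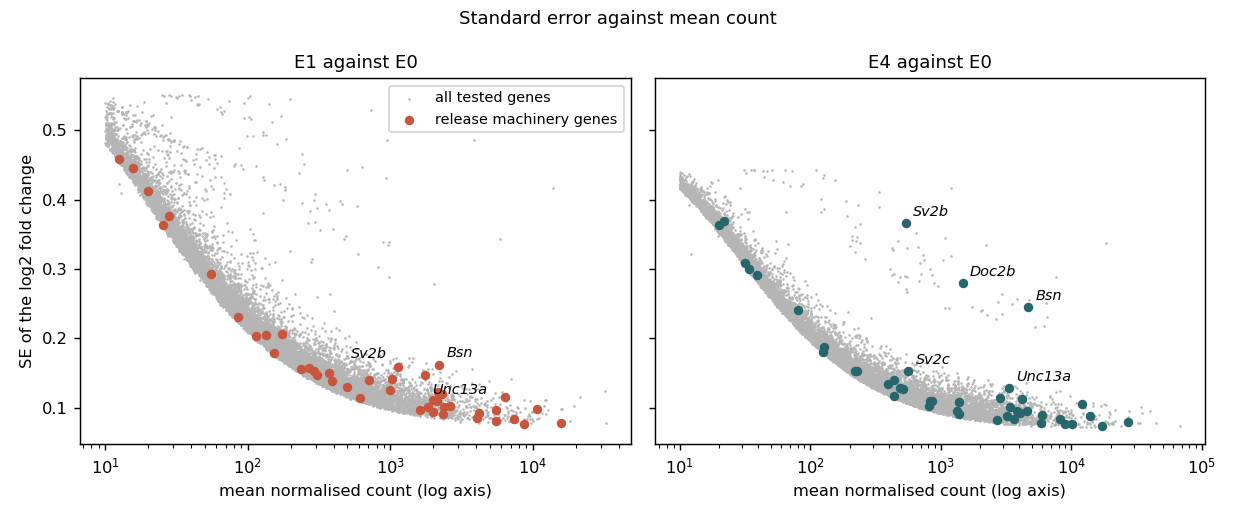
SE of the log2 fold change against mean normalised count (log axis) for tested genes (grey, mean count 10 or more) and the 44 members (coloured), in E1 (left) and E4 (right). Named members lie above at least 95% of the 500 genes nearest in mean count. Sv2b, Doc2b and Bsn stand clear of the main band in E4.

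Other genes of the vesicle cycle were followed as 6 lists, with 142 genes tested. Together 53 (37.3%) were raised and 13 (9.15%) lowered in E1 in the authors' deposited table. The shares there were 20.6% and 15.0% of all genes tested, and 24.5% and 20.7% of well-read genes (mean count above 50). In E4, 37 (26.1%) were raised and 42 (29.6%) lowered in the authors' deposited table. Here the shares were 20.7% and 18.3% of all genes tested, and 25.5% and 21.9% of well-read genes. The lists were not cut at a mean count of 50, and their share raised in E4 was near that of well-read genes. These shares over all genes stand behind the count of each list. Of 31 genes of vesicle endocytosis and recycling, 13 were raised and 2 lowered in E1 (median 0.21), and 12 raised and 8 lowered in E4 (median 0.04), in the authors' deposited tables. The clathrin heavy chain gene Cltc was raised at 0.74 ± 0.09 in E1 (adjusted p = 4.44e-16) and 1.36 ± 0.09 in E4 (adjusted p = 5.93e-48), and in E4 the AP-2 adaptor gene Ap2b1 stood at 1.49 ± 0.08 and the light chain gene Cltb at 1.64 ± 0.10, in the authors' deposited tables. The fission GTPase gene Dnm1 was lowered in E4 at -0.63 ± 0.08 (adjusted p = 3.66e-14), and Dnajc6, the clathrin uncoating cofactor auxilin, at -0.81 ± 0.09, in the authors' deposited table. In E1 Synj2 was raised at 2.12 ± 0.19 and Sh3gl2, an endophilin gene, at 1.14 ± 0.13 in the authors' deposited table.

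Of 19 further synaptotagmins and C2-domain release genes, 6 were raised and 1 lowered in E1 (median 0.48) and 1 raised and 9 lowered in E4 (median -0.53) in the authors' deposited tables. Cadps, a priming factor of dense-core vesicles, was raised at 0.97 ± 0.11 in E1 and lowered at -0.53 ± 0.10 in E4, and the Rab3 effector Rph3a was lowered at -1.12 ± 0.09 in E4, in the authors' deposited tables. Of 27 further SNAREs and SNARE regulators, 10 were raised and 5 lowered in E1 (median 0.14) and 8 raised and 7 lowered in E4 (median 0.06) in the authors' deposited tables. Prrt2, which binds Snap25, was lowered in E4 at -1.30 ± 0.09 in the authors' deposited table.

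Of 27 further active zone genes, 9 were raised and 1 lowered in E1 (median 0.14) and 9 raised and 9 lowered in E4 (median 0.15) in the authors' deposited tables. Rimbp2, which links RIM to calcium channels, was raised in E4 at 1.34 ± 0.11 (adjusted p = 2.06e-31) and the liprin gene Ppfia4 lowered at -0.99 ± 0.09 in the authors' deposited table. Apba2 was raised at 0.84 ± 0.10 in E1 and 1.27 ± 0.09 in E4 in the authors' deposited tables. Of 20 genes of vesicle acidification and transmitter loading, 10 were raised and 1 lowered in E1 (median 0.27) and 5 raised and 3 lowered in E4 (median 0.02) in the authors' deposited tables. The vesicular zinc transporter gene Slc30a3 was lowered in E1 at -0.35 ± 0.14 and raised in E4 at 1.08 ± 0.11 (adjusted p = 2.74e-22) in the authors' deposited tables. Of 18 further vesicle membrane genes, 5 were raised and 3 lowered in E1 (median 0.07) and 2 raised and 6 lowered in E4 (median -0.14), with Sncb, the beta-synuclein gene, at -0.79 ± 0.08 and Rab26 at -1.44 ± 0.17 in E4, in the authors' deposited tables.

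**Figure D5:**
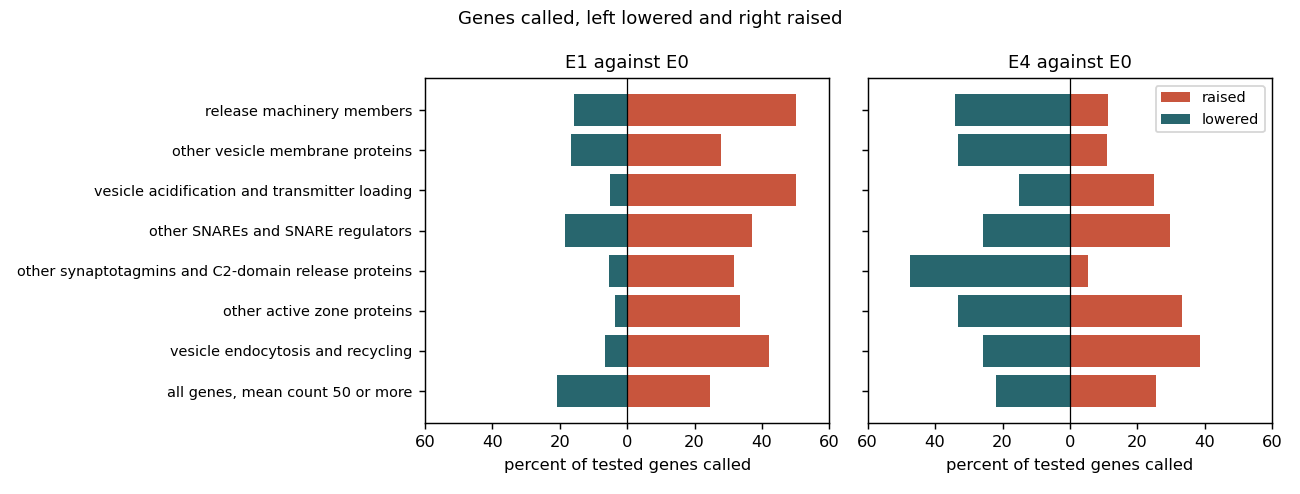
Percent of tested genes called raised (bars to the right of 0) and lowered (to the left) in E1 (left panel) and E4 (right panel), for the 44 members, the 6 lists of other vesicle cycle genes and all genes above a mean count of 50. For the members 22 of 44 were raised and 7 lowered in E1, and 5 and 15 in E4. The members and lists were not cut at a mean count of 50.

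Markers of cell types were followed in the same comparisons, and their counts stand beside the same shares. Over all genes tested these were 20.6% raised and 15.0% lowered in E1, and 20.7% and 18.3% in E4. Over well-read genes they were 24.5% raised and 20.7% lowered in E1, and 25.5% and 21.9% in E4. The marker lists were not cut by mean count and hold rarely read genes. In E1, 13 of 17 GABAergic interneuron markers were raised and 4 not called (median 1.02), among them the GABA synthesis gene Gad2 at 1.57 ± 0.12 and Slc32a1 at 1.25 ± 0.15, with Pvalb at 0.09 ± 0.31 (adjusted p = 0.857), in the authors' deposited table. Raised in E1 were also 5 of 9 markers of CA3 pyramidal cells and 4 of 12 of mossy cells, with 2 and 1 lowered, while 12 of 16 astrocyte markers, 4 of 11 microglia markers and 10 of 15 granule neuron markers (3 raised) were lowered, in the authors' deposited table. Ociad2, raised in E1, counts in both the CA3 and the mossy cell list. In E4, 2 interneuron markers were raised and 1 lowered of 17, 5 of 9 CA3 markers were lowered and 1 raised, 3 of 11 mossy cell markers, 4 of 16 astrocyte markers (1 raised) and 2 of 11 microglia markers were lowered, and granule neuron markers were split, 7 raised and 7 lowered of 15, in the authors' deposited table. Of 12 oligodendrocyte markers 3 were raised and 2 lowered in E1 and none called in E4, of 9 endothelial markers 3 were raised and 1 lowered in E1 and none called in E4, and of 5 oligodendrocyte precursor markers none was called in E1 and 1 was lowered in E4, in the authors' deposited tables. The part of these shifts in the members' values was not tested.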

How the data were processed

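The 9 RNA-seq libraries, 1 per mouse, were made from total RNA. Per the submitters' processing notes, TopHat2, DESeq2 and build mm9 were used; not given in the sources used here are versions, counting program, annotation, strand and model. In the deposited tables the signal (mean count here) averages normalised counts over libraries, per the file headers. The log2 fold changes, their SEs, the score (fold change over SE), the p-values and adjusted p-values are the authors' own, and missing ones stayed missing. The deposited fold changes look shrunken: below a mean count of 1 their median absolute value was 0.142 (E1) and 0.106 (E4). The tables name no reference group; E0 was assumed. Spreadsheet dates replaced 27 symbols in the E1 table, leaving 23988 shared.

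Depth per library was not analysed here. Above a mean count of 50 the median SE was 0.170 in E1 and 0.135 in E4, so E1 was less precise.

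With no value per library, no count test was run. E4 was compared with E1 by the difference of both fold changes, with its SE from both SEs, a two-sided normal p and Benjamini-Hochberg adjustment, for genes read at least 10 times on average in each table. Both share E0, which this leaves out of account. The test was run on simulated fold changes with normal errors of the deposited SEs. This cannot check those SEs or the shrinkage of the deposited fold changes. Folds are 2 to the power of the deposited log2 value, and 95% intervals use its SE. Lengths, GC content and exon overlaps came from GENCODE M21 (GRCm38); all 44 members had a length, and 17 share exon bases with another gene. Python 3.11.15, numpy 2.4.6, pandas 2.3.3, scipy 1.17.1 and matplotlib 3.10.9 were used. Full statistics were due for the 8 largest called rises and falls per comparison, up to 5 each way between E4 and E1, and 15 core members. Genes named in the lists of other vesicle cycle genes, Slc17a8 apart, had a mean count of 50 or more. They were among the 3 of these called each way with the smallest adjusted p. Marker lists had up to 3 genes named. A gene within this rule is not reported here. Members and lists were chosen with earlier results of these data known. Stxbp6, Ap2s1 and Slc32a1 are in both a marker and a vesicle list, and Ociad2 is in both the CA3 and the mossy cell list. Alternatives were other thresholds and filters, centring, correction for length and GC content, and a correlation of 0.5 between fold changes.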

Additional observations from a re-analysis of the deposited data

Results flagged for a closer look

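Between the time points, the effect over E0 differed for 24 of 44 members by the test of the difference (E4 minus E1, log2 scale), beside 36.7% of all 12769 genes tested and 42.1% of those above a mean count of 50. It was lower in E4 by more than 1 log2 unit for Sv2b (-2.96), Rab3c (-2.26), Syt4 (-2.05), Snap25 (-1.59), Napb (-1.34), Syt3 (-1.24), Syt12 (-1.09), Vamp1 (-1.08), Rab3a (-1.07) and Pclo (-1.01). Smaller drops were those of Cplx1 (-0.89), Stx1a (-0.75), Doc2a (-0.74), Unc13b (-0.72), Syt11 (-0.71), Syn2 (-0.71), Syt1 (-0.59), Sv2a (-0.51) and Vamp2 (-0.42). It was higher in E4 for Syt5 (0.42), Syt17 (0.44), Erc2 (0.50), Syt13 (0.72) and Sv2c (1.02). No outlier among single mice could be looked for, since the tables used here hold no value per mouse.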

How the results depend on the processing

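No paired analysis was possible because the tables used here hold no value per library, and for the same reason no replicate could be left out. No member changed direction where called: of 655 member values under the alternatives, 602 kept their side of the threshold, 44 lost a call and 9 gained one. Of the 5 members raised in E4, 2 remained at an adjusted p below 0.01 and 2 with an absolute log2 fold change of at least 0.5. In each of the settings without a filter on low counts, centred on the median, and corrected for length and GC content, 3 of the 5 remained. Between E4 and E1, a correlation of 0.5 between the fold changes gave 24 lower members in place of 19. Calls over all genes rose as well in this setting, to 3378 lower in place of 2425 and 3358 higher in place of 2256. Of the 15 lowered in E4, 6 remained with that minimum fold change. Requiring it also left 1763 raised and 1726 lowered genes over the whole table for E4, 21 raised genes of the vesicle cycle lists in E4, and 31 raised and 4 lowered in E1. At an adjusted p below 0.01 the lists had 6 lowered genes in E1. The members raised in E1 ranged from 16 to 22 and those lowered from 5 to 7 over all settings. Rare reads limit Syt2, Syt6, Cplx3, Rims3 and Slc17a6, whose SE was at least 0.29 in both tables.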
